A study of Mus musculus with 8 samples.

Results

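The proteasome genes of the kidney were examined in mice that lack Keap1, as all named genes on the array whose symbol begins with Psm, a letter from a to g and a digit. Of 50 such genes with a probe, 49 had one that stood well above background on 4 or more of the 8 arrays, among 13571 named genes and 19594 features that were tested in all. Psmb11, the thymus beta subunit, was the gene left out, with its probes above background on at most 1 array. The 49 hold 47 proteasome genes and 2 that share only the symbol. These 2 are Psmc3ip (Hop2, a factor of meiotic recombination) and Psme3ip1, a nuclear protein that binds the activator PA28 gamma.

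RNA from whole kidneys of 8-week-old mice was hybridised to 1-colour Agilent arrays, 1 array for each mouse. NEKO mice (4) are Keap1-/-::Nrf2Flox/Flox::K5-Cre: they carry no intact Keap1 allele in any tissue, and they lose the floxed Nrf2 alleles where the Keratin5 promoter drives Cre, in squamous epithelium, so that Nrf2 can act in the kidney. The 4 controls keep 1 functional copy of Keap1 (Keap1+/-) and also carry Nrf2Flox/Flox. Of the controls, 3 were K1Cre, with the K5-Cre transgene, and 1 female was K1, without it. All mice were of a mixed 129Sv/J and C57BL/6J background, and each group held 2 females and 2 males. Signals are given on a log2 scale, each array being set to its own 75th percentile, so a difference of 1 is a 2-fold difference in signal, and levels of different genes are not compared.

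The proteasome is the protease that degrades most ubiquitin-tagged proteins. Its 20S core is a stack of alpha rings, which gate the entrance, around beta rings, of which Psmb5, Psmb6 and Psmb7 carry the catalytic sites. The 19S cap recognises, unfolds and feeds the substrate, by a ring of ATPases (Psmc genes) and a set of non-ATPase subunits (Psmd genes). In leukocytes, and in other cells under interferon, Psmb8, Psmb9 and Psmb10 replace the catalytic subunits and form the immunoproteasome, which favours peptides for antigen presentation. Nrf2 itself is degraded by this machine after Keap1 and Cul3 have brought about its ubiquitination. Transcription of proteasome genes is driven when proteasomes fail by Nrf1 (gene Nfe2l1), a relative of Nrf2, and Nrf2 has been described as an inducer of some 20S subunits. Both factors pair with small Maf proteins and read the antioxidant response element, whose core is TGACNNNGC.

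Copies of this core near the gene starts are shown for the members and for known Nrf2 targets, because loss of Keap1 acts on Nrf2, which reads it. Windows of 250 bases before to 50 after the gene start were taken from RefSeq on GRCm38.p6, and 41 of the 49 members had one. TGACNNNGC, on either strand, lay in the windows of 6 of the 41 members (14.6%), namely Psmb5, Psmb6, Psmc6, Psmd9, Psmd12 and Psme4. It lay in a window of 14% of the 27025 genes that have one, and of 7 of 15 Nrf2 targets (46.7%). The share in members was thus near that of all genes. The stricter TGACTCAGC was in none of the 41 members, in 0.503% of all genes and in 1 Nrf2 target, Me1. In the sequences of 5 of these members and of 3 targets, printed 5' to 3' along the gene, capitals mark the core, which reads GCNNNGTCA where it is on the opposite strand.
Psmb5, chr14:54618018-54618058, minus strand: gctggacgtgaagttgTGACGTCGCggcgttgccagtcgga
Psmb6, chr11:70525332-70525356, plus strand: ggcggactaaagagagTGACGGAGC
Psmd9, chr5:123228143-123228183, plus strand: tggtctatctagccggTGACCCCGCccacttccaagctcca
Psmc6, chr14:45329581-45329621, plus strand: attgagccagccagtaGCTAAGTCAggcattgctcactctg
Psmd12, chr11:107479278-107479305, plus strand: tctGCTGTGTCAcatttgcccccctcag
Gclm, chr3:122245407-122245447, plus strand: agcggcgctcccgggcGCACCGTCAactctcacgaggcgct
Txnrd1, chr10:82859098-82859138, plus strand: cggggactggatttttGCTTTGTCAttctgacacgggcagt
G6pdx, chrX:74428913-74428953, minus strand: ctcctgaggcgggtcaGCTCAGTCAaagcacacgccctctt
The 6 members with the core had a median log2 difference between NEKO and control kidneys of 0.00, and the 35 without it one of -0.06. The copy in Psme4 spans the gene start and is not printed. A match describes letters in this window only.

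Whole-array values bear on every result. The share of probes above background ran from 61.8% to 65.7% over the arrays, no probe was saturated, and the number of arrays limits the precision. Females lay on 1 slide and males on the other, with both groups on each. The targeted gene was lower in the mice labelled as its knockouts: Keap1 was between 1.77 and 1.92 in the controls and between 0.06 and 0.45 in the NEKO mice, and fell by 1.63 (SE 0.10, adjusted p = 0.0046 by limma). The remaining signal, 0.322 times that of the controls, was above background on all 4 NEKO arrays, and it is not known here whether the probe lies in the deleted part of the gene. Proximal tubule markers (Slc34a1, Lrp2 and 4 more) were abundant in every mouse, with mean levels of 6.26 to 6.67. No marker gene on 13 cell type lists was called, and the medians of the lists ran from -0.90 (intercalated cells) and -0.85 (distal convoluted tubule) to 1.29 (urothelium) and 1.72 (neutrophils). The neutrophil median rests on 2 genes, of which S100a8 was above background on 3 NEKO arrays and 1 control array.

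No proteasome gene passed the test in either direction. With limma and adjustment over all 19594 features, 0 of the 49 members were called at an adjusted p under 0.05, where 0.225% of all features were called (0.097% higher and 0.128% lower). That share of 49 genes is less than 1 gene. At an unadjusted p under 0.05, 1 member was higher and 7 were lower, 16.3% of the members beside 18% of all features. The methods' t-test gave 1 higher and 4 lower without adjustment, beside 943 and 1269 of the 19594 features, and no member with it. By limma, again at an unadjusted p under 0.05, the count of lower members was 7 with all mice. It was 1 without control replicate 1, and 3 without control replicate 4, NEKO replicate 5 or NEKO replicate 6. It was 4 without NEKO replicate 2 or control replicate 7, 6 without NEKO replicate 3 and 8 without control replicate 8. The differences themselves changed less: without control replicate 1 that of Psmc1 was -0.20, that of Psmg3 -0.18, that of Psmb3 -0.19 and that of Psmb9 -0.39. The 1 higher member was no longer counted without control replicate 1, NEKO replicate 3 or control replicate 8. For the runs without 1 mouse, the matching counts over all features are not given, so these counts are not a result about the members. In RNA of a whole organ, fewer cells of a type and less RNA per cell cannot be told apart.

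The intervals around these differences were narrow. In 46 of the 49 members the 95% interval of the difference lay within a 1.5-fold change either way, as in 66% of all features. The other 3 were Psma8, Psmb8 and Psmb9. Within a 2-fold change either way lay the intervals of all 49, beside 85.9% of all features. The median standard error was 0.082 for the members and 0.120 for all features. The median log2 difference of the members was -0.04, that of all features was -0.03, and 33 of 49 members (67.3%) lay below 0, as did 56.2% of all features. Every NEKO mouse lay apart from every control mouse in 4 members (8.16%), beside 9.27% of all features, with Psmd5 above the controls and Psmc1, Psmc3 and Psmc3ip below them. The exact permutation test of 4 mice against 4 gives its smallest p, 0.0286, to any gene whose groups do not overlap. It therefore adds nothing to the separation of these 4.

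**Figure D1:**
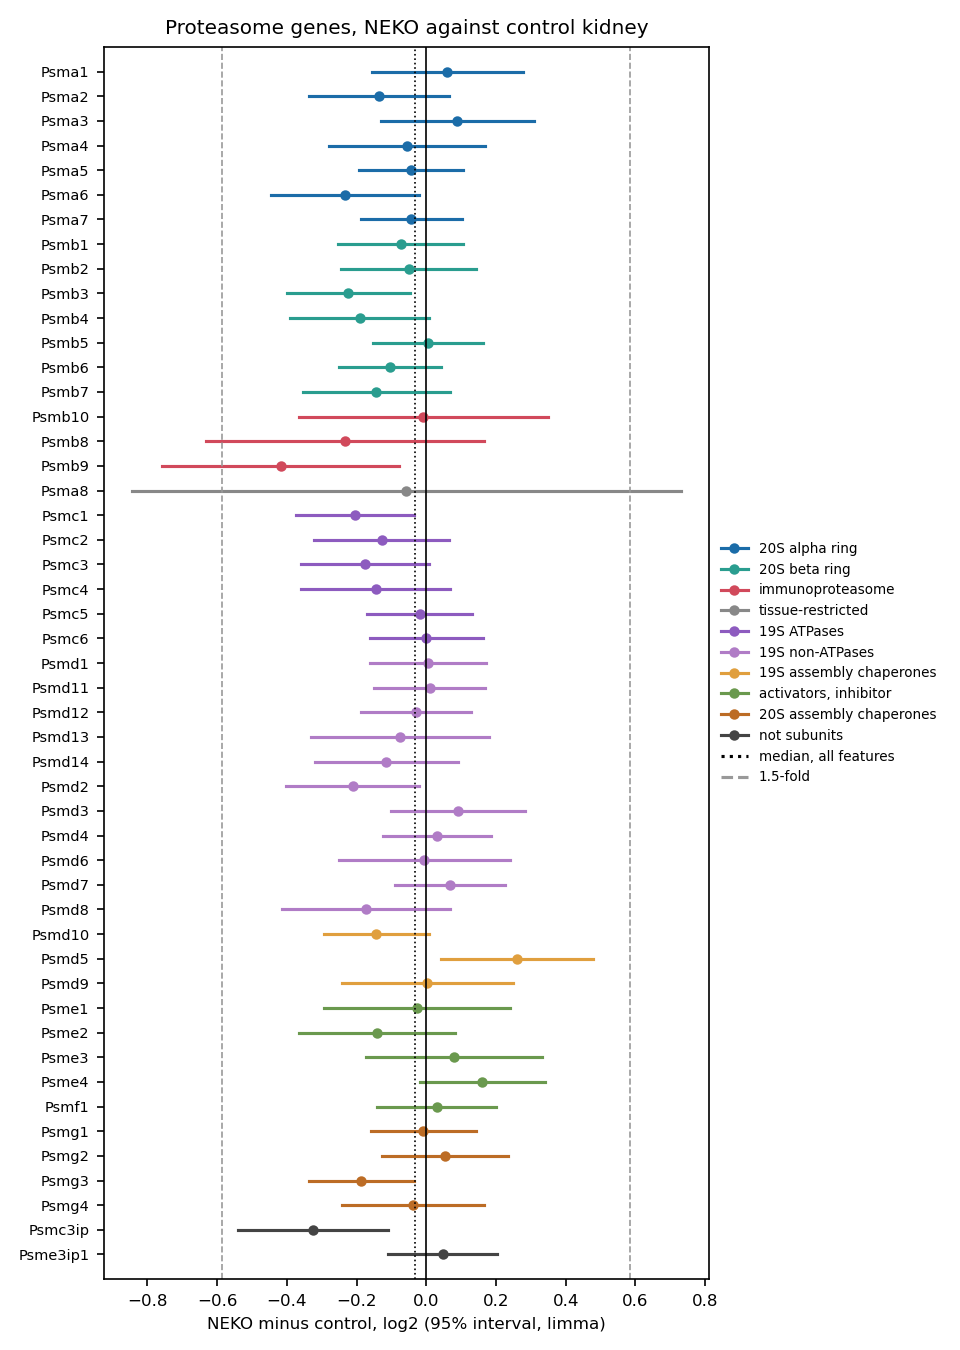
Log2 difference of each of the 49 members (NEKO minus control, points) with its 95% interval from limma (lines), coloured by role. The dotted line is the median of all features, -0.03, and the dashed lines mark a 1.5-fold change, which the intervals of Psma8, Psmb8 and Psmb9 alone cross.

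Among the 7 alpha subunits (Psma1 to Psma7), the log2 difference ran from -0.23 in Psma6 to 0.09 in Psma3, with a median of -0.04. Psma6 was 4.04, 4.14, 4.02 and 3.81 in control replicates 1, 4, 7 and 8, and 3.79, 3.79, 3.67 and 3.83 in NEKO replicates 2, 3, 5 and 6. Only the lowest control, a female, overlapped with the NEKO mice. The difference of -0.23 (SE 0.09) had an adjusted p of 0.24 by limma. Psma8, the alpha subunit of testis, was above background on 6 arrays, and its interval of -0.85 to 0.73 was the widest of the members.

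The 7 constitutive beta subunits ran from -0.22 in Psmb3 to 0.01 in Psmb5, with a median of -0.10, and 6 of them lay below 0. Psmb3, a structural subunit, was 5.30, 5.49, 5.47 and 5.10 in controls 1, 4, 7 and 8 and 5.00, 5.02, 5.28 and 5.16 in NEKO mice 2, 3, 5 and 6. The control females and NEKO males overlapped, while within each sex the NEKO mean was lower, by 0.19 in females and 0.26 in males on the log2 scale. The limma estimate was -0.22 (SE 0.07, adjusted p = 0.20). Psmb4, another structural subunit, was 5.51, 5.70, 5.52 and 5.27 in the controls and 5.26, 5.18, 5.43 and 5.37 in the NEKO mice, in the same order, and 3 of the controls lay above all the NEKO mice. Its difference was -0.19 (SE 0.08, adjusted p = 0.29 by limma).

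The catalytic subunits showed differences of 0.01 to -0.14. Psmb5, the chymotrypsin-like site and the target of bortezomib, was 4.25, 4.50, 4.50 and 4.26 in controls 1, 4, 7 and 8 and 4.20, 4.17, 4.61 and 4.56 in NEKO mice 2, 3, 5 and 6. All males lay above all females whatever their genotype, and the genotype difference was 0.01 (95% interval -0.15 to 0.16, adjusted p = 0.97 by limma). For Psmb6, the caspase-like site, the controls were 5.01, 5.07, 5.09 and 4.96 and the NEKO mice 4.83, 4.88, 5.02 and 4.98. The difference of -0.10 (SE 0.06) had an adjusted p of 0.41. For Psmb7, the trypsin-like site, the controls were 3.17, 3.33, 3.17 and 2.97 and the NEKO mice 3.06, 3.00, 2.95 and 3.05, a difference of -0.14 (SE 0.09, adjusted p = 0.43 by limma). In both, the NEKO mice overlapped with the lower controls. Over the 14 constitutive subunits of the core the median was -0.06, with 11 below 0 and none called.

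The immunoproteasome subunits had the highest standard errors after Psma8, from 0.14 to 0.17. Psmb9, which replaces Psmb6, was 0.68, 0.70, 0.58 and 0.81 in controls 1, 4, 7 and 8 and 0.15, -0.02, 0.31 and 0.67 in NEKO mice 2, 3, 5 and 6. The female NEKO mice were the lowest, and 1 male NEKO mouse lay within the controls. The difference was -0.42 (SE 0.14), a NEKO level of 0.749 times the control level (95% interval 0.592 to 0.947), with an adjusted p of 0.21 by limma. Psmb8, which replaces Psmb5, was 1.09, 0.83, 0.99 and 1.23 in the controls and 0.57, 0.56, 0.86 and 1.22 in the NEKO mice. Here again both female NEKO mice lay below every other mouse, while the male NEKO mice spanned the control values. Its difference was -0.23 (SE 0.17, adjusted p = 0.49 by limma), and its other probe gave -0.36. Psmb10, which replaces Psmb7, was 2.52, 2.13, 2.36 and 2.47 in the controls and 2.18, 2.23, 2.31 and 2.73 in the NEKO mice. The groups overlapped throughout and the difference was -0.01 (SE 0.15, adjusted p = 0.98 by limma).

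**Figure D2:**
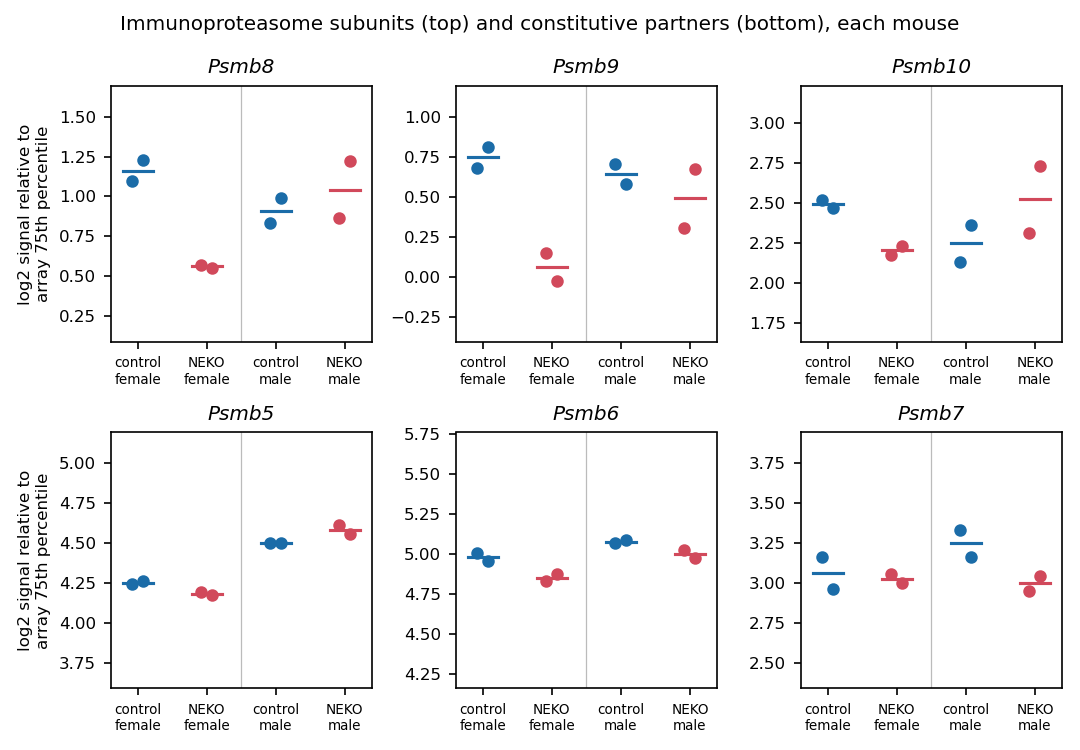
Log2 signal of each mouse (points), scaled by array as described, and the mean of each sex and genotype (bars), with the immunoproteasome subunits above and the constitutive subunits they replace below; all panels span the same log2 range. The female NEKO mice lie below the other mice in Psmb8 and Psmb9 and below the female controls in Psmb10, and in Psmb5 the males, who share a slide, lie above the females.

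The genotype difference of these 3 subunits was lower in females than in males. Psmb8 was -0.60 in females and 0.13 in males, Psmb9 -0.68 and -0.15, and Psmb10 -0.29 and 0.27. The differences between the sexes were 0.73 (SE 0.21) for Psmb8, 0.53 (SE 0.22) for Psmb9 and 0.56 (SE 0.23) for Psmb10, with adjusted p values of 0.28, 0.47 and 0.47 from the interaction in limma, so none was called. Over all 49 members 0 were called for the interaction, beside 0.0153% of all features. The 3 immunoproteasome subunits were the members with an unadjusted p under 0.05 (6.12% of the members, and 10.5% of all features), all 3 with the higher value in males (6.87% of all features). Set against the subunit it replaces, the log ratio of NEKO to control was -0.53 in females and 0.05 in males for Psmb8 over Psmb5, -0.55 and -0.07 for Psmb9 over Psmb6, and -0.25 and 0.52 for Psmb10 over Psmb7. Each sex here holds 2 mice against 2 and lies on a slide of its own, and the effects of sex and of slide cannot be told apart.

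Markers of leukocytes also had lower genotype differences in females than in males. The 4 leukocyte markers (Ptprc, Coro1a, Laptm5 and Cd52) had a median genotype difference of -0.52 in females and 0.73 in males, with 0 of 4 called, and their mean level ran from -1.02 to 0.30 in the NEKO mice and from -0.75 to -0.17 in the controls. For 4 of 5 T cell markers that could be tested the medians were -1.08 and 0.87, although Cd8a among these was -1.98 in females and -0.58 in males. For 6 of 7 macrophage markers the medians were -0.35 and 0.42, although Csf1r among these was 0.29 in females and -0.67 in males. Neutrophil markers (2 of 3 tested) had medians of 0.53 in females and 2.91 in males. Of these, S100a8 was above background on only 4 arrays, 3 NEKO and 1 control. S100a9 was above background on all 8, at 0.46 in females and 2.81 in males. Such a split was not limited to leukocytes: the median of 3 urothelium markers was 0.06 in females and 2.52 in males, and that of the Nrf2 targets 0.37 and 1.58. The part of these cells in the result was not tested. Of 15 interferon gamma and antigen processing genes, 13 could be tested, 0 were called, and the median was -0.24 in females and 0.05 in males. The male value was above the female one in 12 of 13, beside 9849 of 19593 features and 17 of the 49 members. PA28 alpha and beta (Psme1 and Psme2), interferon-induced activators of the core that are members too, were -0.18 and -0.28 in females and 0.13 and -0.01 in males. The core of the interferon-stimulated response element (GAAA repeated after a gap of 2 bases) was sought on either strand. It lay in a window of 6 of 11 genes of the interferon list (54.5%), and in none of Psmb8, Psmb9 and Psmb10. It also lay in a window of 5 of 41 members (12.2%: Psmb3, Psmd4, Psmd9, Psme1 and Psmg4) and of 3.99% of all genes. None of the other 46 members had an unadjusted p under 0.05 for the interaction.

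**Figure D3:**
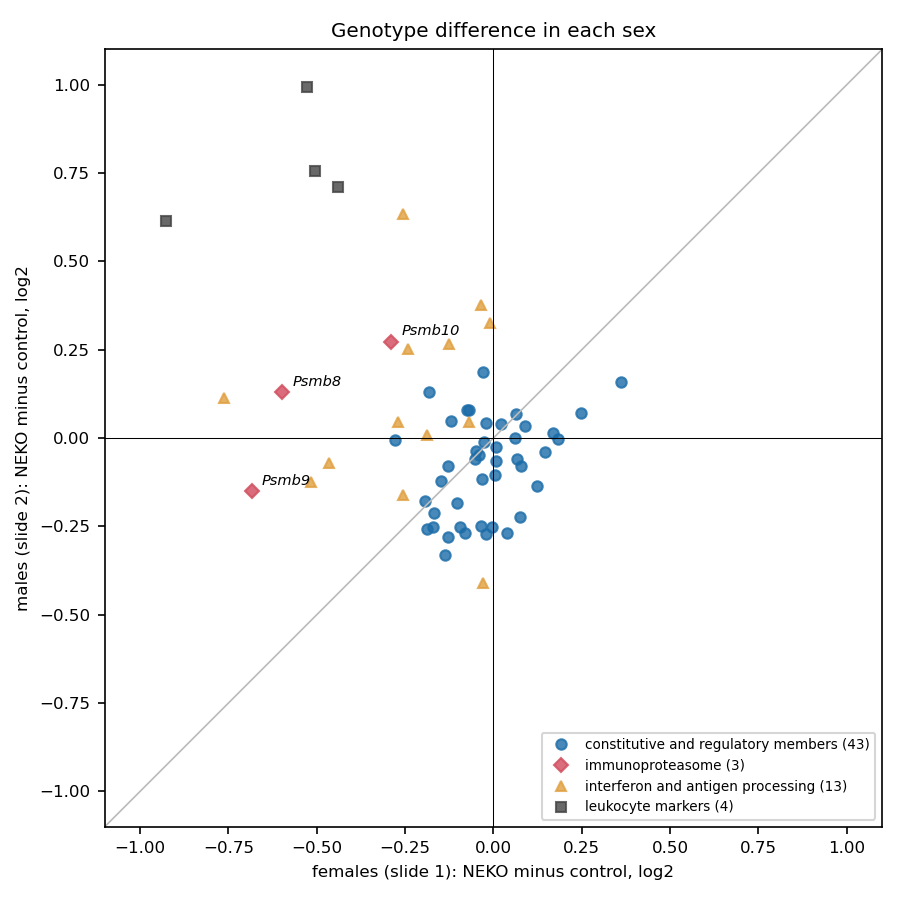
Genotype difference (NEKO minus control, log2) in females on the horizontal axis and in males on the vertical axis, 1 point for each gene; the diagonal marks equal differences. The 3 immunoproteasome subunits and the 4 leukocyte markers lie above the diagonal, and the other 43 proteasome genes of the core, cap, activators and chaperones surround the origin.

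In the 19S cap, the ATPases had a lower median difference than the other subunits. The 6 ATPases ran from -0.20 in Psmc1 to 0.00 in Psmc6, with a median of -0.14. By sex, the ATPase median was -0.02 in females and -0.26 in males, and that of the 11 non-ATPase subunits 0.06 and -0.07. Psmc1 (Rpt2), which opens the gate of the core, was 3.98, 4.19, 4.09 and 3.90 in controls 1, 4, 7 and 8 and 3.79, 3.83, 3.89 and 3.84 in NEKO mice 2, 3, 5 and 6. Every NEKO mouse lay below every control mouse, the nearest by under 0.01, and the difference was -0.20 (SE 0.07, adjusted p = 0.21 by limma). Psmc3 (Rpt5) was 3.27, 3.33, 3.28 and 3.20 in the controls and 3.18, 3.14, 2.96 and 3.12 in the NEKO mice, which again lay below all controls. Its difference was -0.17 (SE 0.08, adjusted p = 0.30).

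The 11 non-ATPase subunits ran from -0.21 in Psmd2 to 0.09 in Psmd3, with a median of -0.01. Psmd2 (Rpn1), the docking platform for ubiquitin receptors, was 3.91, 4.14, 3.93 and 3.80 in the controls and 3.63, 3.74, 3.73 and 3.83 in the NEKO mice. A NEKO male lay just above the lowest control. The difference was -0.21 (SE 0.08, adjusted p = 0.24 by limma), but the second probe of the gene gave 0.02. The deubiquitinase of the lid, Psmd14, was at -0.11 and the ubiquitin receptor Psmd4 at 0.03, both with adjusted p above 0.5. Of 17 subunits of the cap 11 lay below 0, the median was -0.03, and none was called.

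The assembly factors of the cap had differences of both signs. Psmd5, which holds a part of the ATPase ring during assembly of the cap, was 1.74, 2.00, 1.97 and 1.85 in controls 1, 4, 7 and 8 and 2.08, 2.24, 2.02 and 2.26 in NEKO mice 2, 3, 5 and 6. All NEKO values lay above all control values. Psmd5 had the highest difference among the members, each taken by its brightest probe. This was 0.26 (SE 0.09), or 1.20 times the control level (95% interval 1.03 to 1.39). Its adjusted p was 0.22 by limma. Psmd10 (gankyrin), a chaperone of the same assembly, was 1.33, 1.55, 1.55 and 1.26 in the controls and 1.23, 1.16, 1.35 and 1.37 in the NEKO mice, which overlapped. Its difference was -0.14 (SE 0.06, adjusted p = 0.29). The third, Psmd9, was at 0.00 by its brightest probe and at 0.46 by its other probe, the largest gap between probes of 1 member.

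The chaperones of the core (Psmg1 to Psmg4) ran from -0.19 in Psmg3 to 0.05 in Psmg2, with a median of -0.02. Psmg3 was 2.11, 2.29, 2.22 and 2.08 in the controls and 1.92, 1.88, 2.13 and 2.03 in the NEKO mice. It was lower in the NEKO mice of each sex, by 0.19 in females and 0.18 in males as log2 values, although a male NEKO mouse lay above the female controls. The difference of -0.19 (SE 0.06) had an adjusted p of 0.21 by limma. Pomp, the chaperone that completes the core and lies outside the symbol rule, was 5.47, 5.48, 5.55 and 5.30 in the controls and 5.39, 5.33, 5.49 and 5.55 in the NEKO mice. These overlapped, with a difference of -0.01 (SE 0.07, adjusted p = 0.96).

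The activators and the inhibitor ran from -0.14 in Psme2 to 0.16 in Psme4, with a median of 0.03. Psme4 (PA200), a nuclear activator, was 4.68, 5.13, 5.18 and 4.79 in controls 1, 4, 7 and 8 and 4.96, 5.00, 5.29 and 5.17 in NEKO mice 2, 3, 5 and 6. Its groups overlapped, and the difference of 0.16 (SE 0.08) had an adjusted p of 0.32 by limma. The inhibitor Psmf1 was at 0.03 by its brightest probe and at 0.46 and 0.12 by its others. Over the 16 members with more than 1 usable probe, the probes differed in sign in 4 (Psmd2, Psmd7, Psme3ip1 and Psmg2). Psmc3ip, which is no proteasome gene, had the lowest p of the 49: it was -0.74, -0.57, -0.55 and -0.42 in the controls and -0.85, -0.85, -1.01 and -0.87 in the NEKO mice, a separation without overlap. Its difference was -0.32 (SE 0.09, adjusted p = 0.16 by limma), and its other probe gave -0.32.

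Among the other genes of the pathway, Keap1 alone was called. Of 13 further proteasome genes (Pomp, Sem1, Adrm1, Uchl5, Usp14 and others), 12 could be tested, 0 were called, none had an unadjusted p under 0.05, and the median difference was 0.00. Uchl5, a deubiquitinase of the cap, was 2.90, 2.82, 2.95 and 2.75 in the controls and 2.67, 2.69, 2.69 and 2.75 in the NEKO mice. The NEKO mice lay below all controls, by under 0.01 at the nearest, and the difference was -0.16 (SE 0.07, adjusted p = 0.30 by limma). Among 13 of 14 ubiquitin and shuttle genes that were tested, 0 were called and 1 was higher at an unadjusted p under 0.05. This was Sqstm1 (p62), which binds Keap1 and is itself an Nrf2 target, at 0.30 (SE 0.09, adjusted p = 0.17).

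Of the 14 regulators that were tested, Keap1 was the 1 called. Nfe2l1, the gene of Nrf1, was 4.14, 3.80, 4.05 and 4.05 in controls 1, 4, 7 and 8 and 3.98, 4.10, 3.93 and 3.71 in NEKO mice 2, 3, 5 and 6. The groups overlapped, with a difference of -0.08 (SE 0.09, adjusted p = 0.65 by limma). Nfe2l2, the gene of Nrf2, was 3.28, 1.90, 3.05 and 3.22 in the controls and 2.00, 1.92, 2.71 and 2.97 in the NEKO mice. Both NEKO females and 1 control male were at 2.00 or lower and the other mice at 2.71 or higher. The spread within the groups exceeded the difference of -0.46 (SE 0.39, adjusted p = 0.55 by limma). By sex the difference was -1.29 in females and 0.37 in males, and the interaction was not called (adjusted p = 0.29 by limma).

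Known Nrf2 targets had larger differences on the same arrays. Of 19 known targets 18 could be tested, 2 were called higher (0.097% of all features were) and 15 had an unadjusted p under 0.05, all 15 higher in NEKO mice (7.37% of all features). The list was chosen for its known response and its median was 1.03, with 0.37 in females and 1.58 in males. The male difference was above the female one in 17 of 18 targets, beside 9849 of 19593 features, and none was called for the interaction. Its unadjusted p was under 0.05 in 11, all with the higher value in males (6.87% of all features). In 8 targets all NEKO mice lay above all controls, beside 3.88% of all features. Gpx2, a glutathione peroxidase, was -3.55, -4.19, -3.84 and -3.83 in the controls and 0.44, 0.57, 2.55 and 2.60 in the NEKO mice, a difference of 5.40 (SE 0.46, adjusted p = 0.011 by limma). Txnrd1, which reduces thioredoxin, differed by 1.30 (SE 0.17, adjusted p = 0.049). Nqo1, the quinone reductase, was 2.45, 1.24, 2.35 and 2.46 in the controls and 3.89, 4.41, 5.25 and 5.45 in the NEKO mice. Its groups did not overlap, with a difference of 2.62 and an adjusted p of 0.065 by limma. The others without overlap were Srxn1 (1.47), Gstm1 (1.05), G6pdx (1.01), Pgd (1.70) and Abcc4 (2.61), each given as a log2 difference with an adjusted p above 0.05. With each gene taken by its brightest probe, the highest difference of a proteasome gene, 0.26 in Psmd5, lay below 15 of these 18 targets.

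**Figure D4:**
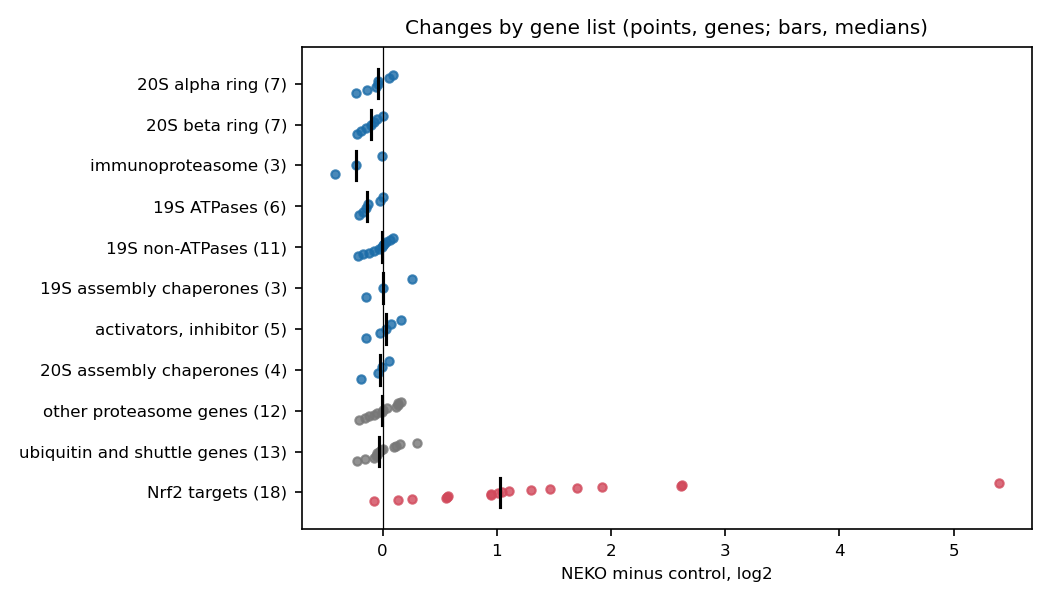
Log2 difference (NEKO minus control) of each gene, 1 point for each, by list, with the number tested in parentheses and the median as a bar. Each gene is taken by its brightest probe. The proteasome groups lie within 0.42 of 0, and the 18 Nrf2 targets reach 5.40 with a median of 1.03.

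Most members had higher levels in the males. The level was higher in males than in females in 41 of the 49, beside 51.8% of all features, and the median of male minus female was 0.12 for the members and 0.01 for all features. None was called, where 0.786% of all features were, and 14 had an unadjusted p under 0.05, beside 21.2% of all features, all 14 higher in males (10.4% of all features). Psmb5 was 0.32 higher in males (SE 0.07, adjusted p = 0.074 by limma), and Psme4 was 0.33 higher (SE 0.08, adjusted p = 0.085). All 7 alpha and all 7 constitutive beta subunits were higher in males. After quantile normalization the count was 32 of 49, beside 47.6% of all features, and the median 0.04. Only 5 members then had an unadjusted p under 0.05. Under the other settings tried, the count was 36 to 43 of 49, beside 49.8% to 57.1% of all features, and 10 to 16 members had such a p. Because all females lay on 1 slide and all males on the other, the sex cannot be told apart from the slide.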

How the data were processed

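The authors extracted total RNA from kidneys, labelled it with Cy3 and hybridised it to Agilent mouse 4x44K arrays, and deposited the output of Agilent Feature Extraction 10.7.3.1 per the file headers. The deposited processed signal is an intensity from which background has been subtracted, with no normalization between arrays. A matrix of log2 values was deposited too. Values were recomputed from the processed signal by setting each array to its 75th percentile and then centring each probe. Of the deposited values, 100%, rounded, lay within 0.01 of the recomputed ones. The scaling of the deposited matrix is inferred from this match. As an alternative setting, that matrix is therefore close to a repeat of the main values. The sources used here do not name the normalization of the arrays. They give no test for them beyond an unpaired comparison with unequal variances for the whole paper, called the methods' t-test.

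Here spots marked as outliers were left out (73 to 172 of 43379 on each array), spots of 1 probe were averaged, and log2 of the processed signal was taken less the 75th percentile of the array. Probes well above background on at least 4 arrays, with a value on at least 6, were kept, with the brightest kept probe standing for its gene. RefSeq accessions of GRCm38.p6 named 26690 of 41174 probes (18217 genes), and 6023 unnamed transcripts were tested with the 13571 named genes. Members with near-identical copies, such as Psme2, may share signal with them, which was not tested. The fit used lmFit and eBayes of limma 3.58.1 in R 4.3.3, with genotype and sex (which is also the slide) as terms and Benjamini-Hochberg adjustment over all 19594 features, and was tested on simulated data. The interaction of sex and genotype was fitted in a second model. Single genes were also compared by the exact two-sided permutation test. P-values measure the spread between mice, 1 array each.

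The members and lists were chosen with earlier results of these data known. The rule for naming took Psmb5 to Psmb10, the 10 members with the lowest p, genes of the other lists that were called or did not overlap, and Keap1, Nfe2l1, Nfe2l2, Nqo1 and Pomp, while groups of members are given by their extremes. Psmc3, Psmd4, Psmd9, Psmd14, Psme1, Psmf1, Sqstm1, Csf1r, Cd8a, S100a8, S100a9 and the mouse by mouse values of Psme4 were added after their values were seen. Of the lists, Paaf1 and Ddi2 have no named probe, and Ddi1, Nlrc5, Ifng and Slc7a11 were not above background on enough arrays. Alternatives were normexp (offset 50, on the median signal and local background), quantile or median scaling, other filters on dim probes, no sex term, a mean over kept probes, a random block for slide, array weights, eBayes with trend and robust, the methods' t-test, the deposited matrix, a model with an interaction, and leaving out each mouse.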

Additional observations from a re-analysis of the deposited data

Results flagged for a closer look

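In 3 of 98 groups of 4 mice, 1 for each member and genotype, a single mouse lay far from the other 3, measured as its gap to the nearest divided by the range of the group and set against Dixon's critical value at the 95% level. Chance gives such a gap in about 1 in 20 groups. In Psmd9 (ratio 0.913), control replicate 1, the female without K5-Cre, was at 1.60 and the other controls between 1.15 and 1.19. In Psmc4, an ATPase of the cap (ratio 0.898), NEKO replicate 2 was at 3.44 and the other NEKO mice between 3.60 and 3.62. In Psmc3ip (ratio 0.87), NEKO replicate 5 was at -1.01 and the others between -0.87 and -0.85.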

How the results depend on the processing

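None of the members was called under any of the 22 alternatives, except under the methods' t-test without adjustment, where 1 member was higher (Psmd5), 4 were lower (Psma6, Psmc1, Psmc3 and Psmc3ip) and 1 of the other proteasome genes was called. Over all features, 19 were called higher and 25 lower. These counts were 69 and 113 with normexp, 8 and 12 with the filter for all 8 arrays, 33 and 58 with array weights, 40 and 53 with trend and robust, 0 and 1 with the methods' t-test after adjustment, 943 and 1269 without it, and 247 and 268 when an interaction was fitted and the sexes averaged. Without the sex term 16 were lower. Leaving out 1 mouse gave 9 to 24 higher and 8 to 25 lower. The cause of these shifts was not tested. The log2 difference of Psmb10 ran from -0.15 to 0.059 and that of Psmb5 from -0.021 to 0.025 when 1 mouse was left out. Psmb10 lay above 0 without control replicate 1 (0.058), NEKO replicate 2 (0.059), 3 (0.037) or 5 (0.019) and control replicate 8 (0.038), and Psmb5 below 0 without control replicate 4 (-0.0096) or 7 (-0.0091) and NEKO replicate 5 (-0.021). The other 13 members named by the rule for single genes kept their sign under all 22 alternatives, with adjusted p values of 0.12 to 0.46 for Psmb9 and 0.15 to 0.44 for Psmg3. Psmc3 and Psme4 were not recomputed as single genes. The differences between the male and female effects of Psmb8, Psmb9 and Psmb10 were recomputed in 11 settings only. They ran from 0.55 to 0.91, 0.35 to 0.72 and 0.35 to 0.77, none of them called. No paired analysis was possible because the replicate numbers run over both groups and none is shared. With 4 mice in a group, the median standard error of the members was 0.082.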
